A study of Homo sapiens with 12 samples.

Results

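The neurofilament genes examined here were NEFM, NEFL, NEFH and INA, which encode the medium, light and heavy neurofilament proteins and alpha-internexin. They were 4 of the 25343 genes in the deposited count table and were matched by symbol. NEFM was chosen by its own values: it was the only gene that passed the test in both cell lines when the WRN guides were set together against the control guide. The other members were included as the rest of the neurofilament family, whatever their values.

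Messenger RNA was measured by RNA-seq in 12 libraries from a pair of cancer cell lines that express Cas9, the colorectal line SW48 and the ovarian line OVK18. In each line, cells were harvested 72 h after transduction with sgWRN2, with sgWRN3 or with sgCh2-2. The first pair are single guide RNAs against WRN, a DNA helicase of the RecQ family, and sgCh2-2 is a negative control guide that cuts in an intergenic region of chromosome 2. Each of the 6 groups held 2 libraries, A and B, and the labels do not say whether these came from separate cultures, so p-values measure only the spread between these libraries. Cas9 was expressed in all groups, controls included, and the labels name no selection of edited clones.

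Neurofilaments are the intermediate filaments of neurons. NEFL forms the core of the filament, NEFM and NEFH join it and carry long phosphorylated tails that project as side arms, and INA assembles with them in the central nervous system. They fill large axons and set their calibre, and light-chain protein released into blood is used as a marker of axonal damage. Colorectal and ovarian epithelia are not known for neurofilaments, and their usual intermediate filaments are keratins.

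Total counts ran between 15423162 and 32581625 per library. The check of the targeted gene showed lower WRN transcript with the WRN guides in SW48, at 35.6 CPM (reads of the gene scaled to library size, TMM-normalised) with sgWRN2 and 49.6 CPM with sgWRN3, against 101 CPM with sgCh2-2 (log2 difference of the mean of both guides -1.27, edgeR quasi-likelihood test, adjusted p = 0.00409). This call missed the threshold without SW48 sgCh2-2 library B (adjusted p = 0.0667). In OVK18 the levels were 21.5 CPM with sgWRN2 and 22.6 CPM with sgWRN3, against 35.9 CPM with sgCh2-2 (-0.71, adjusted p = 0.206), and the OVK18 difference passed in 2 of 21 alternatives, DESeq2 (adjusted p = 0.00577) and edgeR with no filter (adjusted p = 0.000215). A guide that cuts the gene need not lower its transcript, so this measures RNA and not editing. Of 10 colorectal epithelial markers, 7 exceeded 1 CPM in SW48 and 0 in OVK18. Of 9 Mullerian and ovarian markers, OVK18 exceeded 1 CPM for HOXA10 and HOXA11 alone, and SW48 did so for those and for PAX8 and MSLN.

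NEFM had more reads than the other members together in every library, and it was high in the sgWRN2 libraries of both lines. In SW48, NEFM stood at 34.5 and 21.2 CPM in the sgWRN2 libraries A and B, at 2.68 and 1.87 CPM in the sgWRN3 libraries, and at 1.03 and 0.756 CPM in the sgCh2-2 libraries. These values rest on 570 and 332 reads with sgWRN2, 45 and 31 with sgWRN3, and 32 and 14 with sgCh2-2. The groups did not overlap: both sgWRN2 libraries were far above the rest, and both sgWRN3 libraries were above both sgCh2-2 libraries.

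In OVK18, NEFM stood at 30.2 and 26.1 CPM in the sgWRN2 libraries A and B, at 1.57 and 2.41 CPM in the sgWRN3 libraries, and at 0.660 and 0.619 CPM in the sgCh2-2 libraries. The read counts were 861 and 477 with sgWRN2, 36 and 62 with sgWRN3, and 17 and 20 with sgCh2-2. The order of the groups was that seen in SW48, again with no overlap. The lowest sgWRN2 library was 7.89 times the highest other library in SW48 and 10.9 times in OVK18. Over all libraries, 2240 of 2497 NEFM reads (89.7%) came from the 4 sgWRN2 libraries.

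**Figure D1:**
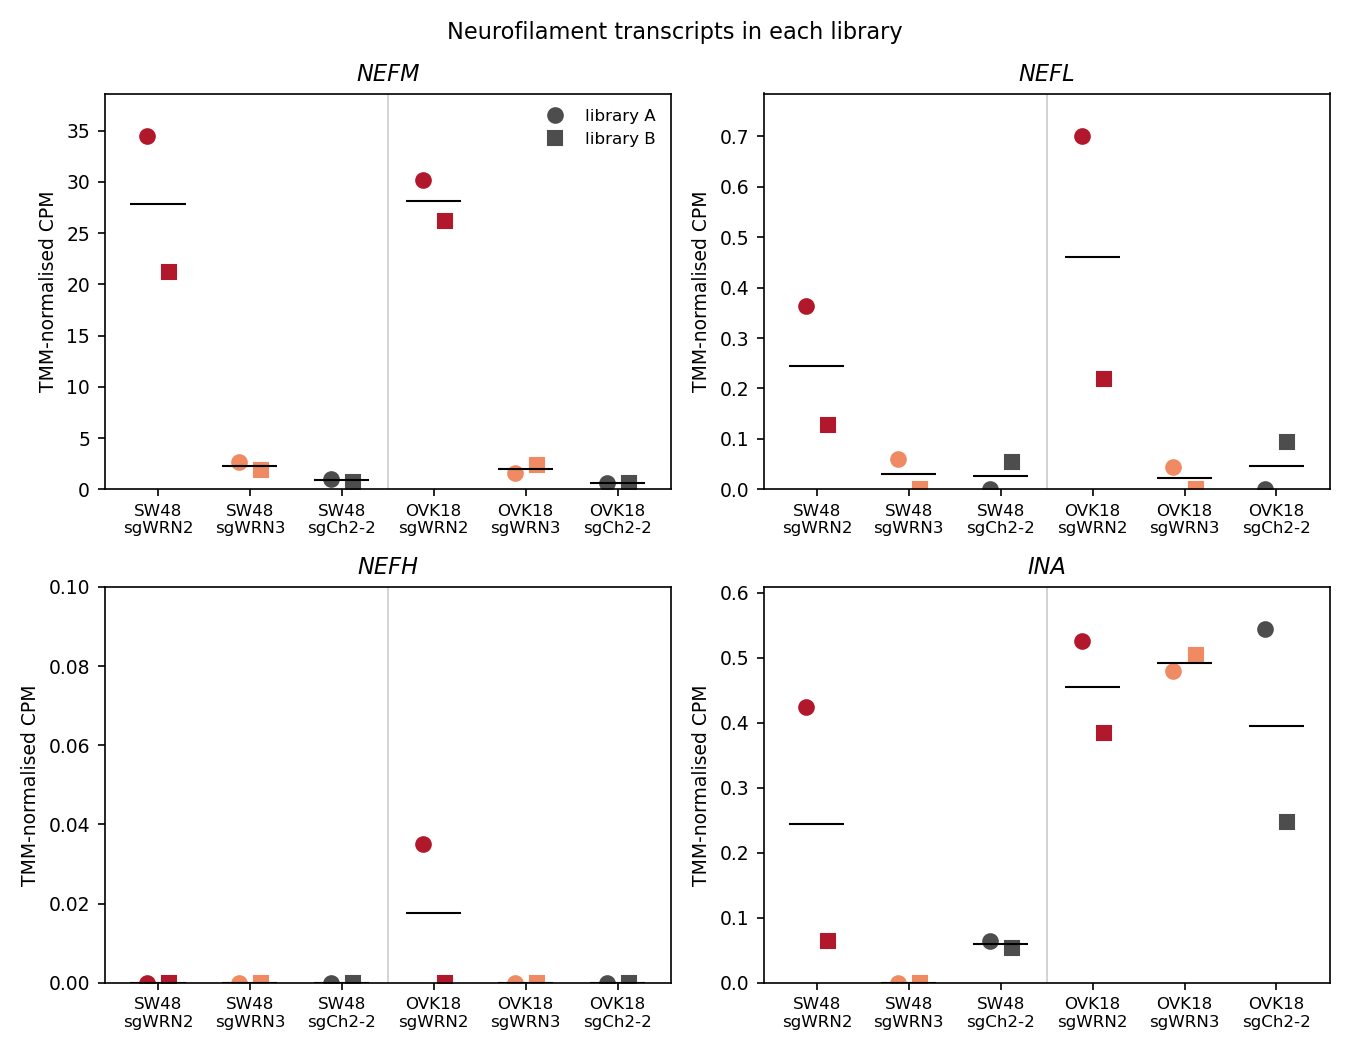
TMM-normalised CPM (vertical axes, linear, each panel with its own scale) of the 4 neurofilament genes in the 12 libraries, by line and guide; circles are A libraries, squares B libraries and horizontal bars group means. NEFM reaches 34.5 CPM in an sgWRN2 library of SW48 and 30.2 CPM in one of OVK18, while every library of NEFL, NEFH and INA lies below 1 CPM.

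The 6 group levels of NEFM fell into 3 steps. OVK18 sgWRN2 averaged 28.2 ± 2.86 CPM and SW48 sgWRN2 averaged 27.8 ± 9.42 CPM (SD, n = 2 each), and the OVK18 libraries lay between the SW48 ones. The next step held SW48 sgWRN3 at 2.28 ± 0.576 CPM and OVK18 sgWRN3 at 1.99 ± 0.592 CPM, whose libraries also overlapped. SW48 sgCh2-2 at 0.891 ± 0.190 CPM and OVK18 sgCh2-2 at 0.640 ± 0.0290 CPM came last. In FPKM, read from the authors' second table, which accounts for transcript length, NEFM averaged 8.63 ± 2.98, 0.736 ± 0.261 and 0.294 ± 0.0653 in SW48 with sgWRN2, sgWRN3 and sgCh2-2, and 9.26 ± 0.613, 0.622 ± 0.167 and 0.194 ± 0.0203 in OVK18 in the same order of guides. With sgWRN2 this placed NEFM above 56.0% of the tested genes in SW48 and 57.0% in OVK18, against 16.1% and 13.3% with sgCh2-2. In these bulk samples, more cells with the transcript and more transcript per cell cannot be told apart.

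NEFM was chosen by the mean of the WRN guides against sgCh2-2. The difference between these guides was not part of that rule and was tested. Both used the same sgWRN2 and sgWRN3 libraries and the same fitted spread, so the test is not independent of the choice. In SW48, NEFM was higher with sgWRN2 than with sgWRN3 by a log2 difference of 3.61 (SE 0.288, 95% interval 2.98 to 4.24, 12.2-fold, edgeR adjusted p = 0.000459). In OVK18 it was higher by 3.81 (SE 0.280, 95% interval 3.20 to 4.42, 14.1-fold, edgeR adjusted p = 5.91e-05). Over all tested genes this contrast called 0.944% in SW48 (134 of 14199) and 0.747% in OVK18 (106 of 14199). Among them NEFM had the smallest p in SW48 and the third smallest in OVK18, and by size it ranked 13th of 41 genes higher with sgWRN2 in SW48 and 9th of 62 in OVK18. WRN transcript itself differed between the guides by -0.48 in SW48 (SE 0.162, 95% interval -0.83 to -0.13, edgeR adjusted p = 0.310). In OVK18 it differed by -0.07 (SE 0.164, 95% interval -0.43 to 0.29, edgeR adjusted p = 0.908). Neither passed the threshold. In each line the sgWRN2 libraries lay below the sgWRN3 libraries, but with 2 libraries per group this order says little. The NEFM calls held without any 1 library, with adjusted p of at most 0.0229 in SW48 and 0.00348 in OVK18 over all alternatives. The counts of called genes did not hold: without SW48 sgWRN2 A, sgWRN2 B, sgWRN3 A or sgWRN3 B, the SW48 count was 3, 17, 77 or 8. In OVK18 it was 71, 52, 11 or 27 without the library of the same name, 70 without either sgCh2-2 library, and 67 and 60 without SW48 sgWRN2 A and B.

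The difference between the guides was also compared between the lines. The sgWRN2 minus sgWRN3 log2 difference of NEFM in SW48, less that in OVK18, was -0.21 (SE 0.404, 95% interval -1.09 to 0.68) and did not pass (edgeR adjusted p = 0.999992), in a contrast that called 0.162% of tested genes. The interval leaves room for differences of about the size of its bounds. The difference of the WRN guides together from sgCh2-2 in SW48, less that in OVK18, was -0.43 (SE 0.466); it uses the values that chose NEFM and is given as a description, in a contrast that called 0.0282% of tested genes. With sgCh2-2 alone, NEFM was 0.52 higher in SW48 than in OVK18 (SE 0.420, 95% interval -0.40 to 1.43). The sgCh2-2 libraries also entered the comparisons that chose NEFM, so this too is a description. The control libraries of the lines did not overlap, but 68.6% of all tested genes differed between these controls by the edgeR test (9743 of 14199).

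**Figure D2:**
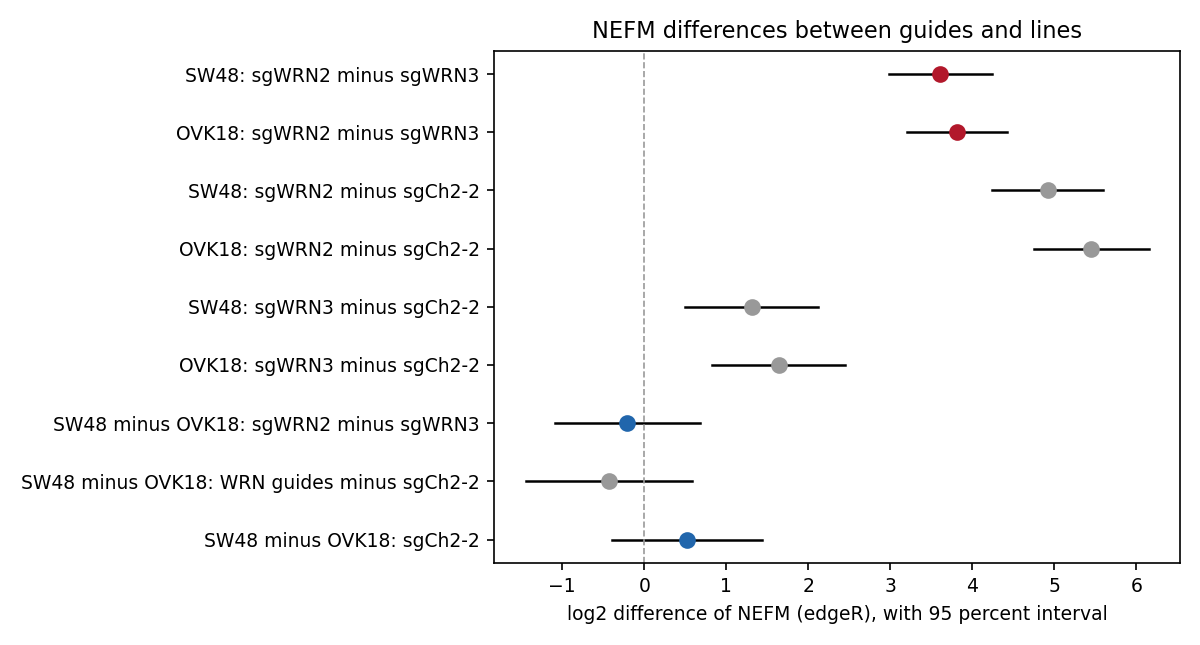
Log2 differences of NEFM from the edgeR fit (horizontal axis), each with its 95% interval, for the guides and lines named at the left. The tested differences between sgWRN2 and sgWRN3 (red) are 3.61 in SW48 and 3.81 in OVK18, and the blue differences between lines have intervals that include 0. The grey differences use the sgCh2-2 comparisons that chose the gene and are shown as a description. The blue sgCh2-2 difference uses libraries that also entered those comparisons and is likewise a description.

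Against sgCh2-2, the values that chose NEFM are given as a description. With sgWRN2 the log2 difference was 4.92 (SE 0.312, 30.2-fold) in SW48 and 5.45 (SE 0.319, 43.8-fold) in OVK18. With sgWRN3 it was 1.31 (SE 0.372, 2.48-fold) in SW48 and 1.64 (SE 0.372, 3.12-fold) in OVK18. These comparisons share the sgCh2-2 libraries of their line. Over all tested genes, sgWRN3 alone against sgCh2-2 called 0 higher and 0 lower in each line, so NEFM was not called there. The mean of both guides minus sgCh2-2 was 3.11 (SE 0.309) in SW48 and 3.55 (SE 0.314) in OVK18, in contrasts that called 0.866% (123 of 14199) and 0.0282% (4 of 14199) of the tested genes. Without SW48 sgCh2-2 A or B, SW48 sgWRN2 A or B, SW48 sgWRN3 A or OVK18 sgWRN3 B, the count of 123 was 4, 0, 42, 37, 51 or 80. The count of 4 was 2 when OVK18 sgWRN2 A or OVK18 sgWRN3 B was left out, and 0 when either OVK18 sgCh2-2 library was. NEFM alone was called in both lines. Just outside stood PLK2, a kinase of the polo family, at 0.64 in SW48 and 0.60 in OVK18, and LAMC1, the laminin gamma 1 chain, at 0.54 and 0.46, each called in SW48 alone, while AGO2, the slicer of RNA interference, stood at 0.39 in each line and was called in neither.

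NEFL, which lies next to NEFM in the genome, was near the limit of detection and had most of its reads in the same libraries. SW48 had 6 and 2 NEFL reads in the sgWRN2 libraries A and B, 1 and 0 with sgWRN3, and 0 and 1 with sgCh2-2. OVK18 had 20 and 4 reads with sgWRN2, 1 and 0 with sgWRN3, and 0 and 3 with sgCh2-2. Both sgWRN2 libraries held more reads than any other library of their line, and 32 of the 38 reads (84.2%) came from the 4 sgWRN2 libraries. Over pooled libraries, NEFL with sgWRN2 stood at 0.248 CPM in SW48 (exact Poisson 95% interval 0.107 to 0.490) and at 0.513 CPM in OVK18 (0.329 to 0.763).

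The ratio of pooled NEFL levels, sgWRN2 over sgCh2-2, was 12.4 in SW48 (95% counting interval 1.66 to 548) and 9.93 in OVK18 (3.01 to 51.5). The same ratio over sgWRN3 was 8.29 in SW48 (1.11 to 368) and 25.0 in OVK18 (4.08 to 1028). These intervals cover counting error only. NEFL did not pass the filter on low counts and has no test in the main fit. In a fit with no filter, sgWRN2 minus sgWRN3 was 4.27 in OVK18 (edgeR adjusted p = 0.0205) and 2.82 in SW48 (edgeR adjusted p = 0.747), fitted values that depend on the prior count. NEFL passed the filter when 1 library was left out, other than OVK18 sgWRN2 A, and then did not pass the test in OVK18. The log2 differences, sgWRN2 minus sgWRN3, were between 3.38 and 6.51 there. NEFL entered these fits through OVK18 sgWRN2 A, at 0.701 CPM, the next highest library being SW48 sgWRN2 A at 0.363 CPM. OVK18 sgWRN2 A belongs to a group compared in OVK18, so these tests are not independent of the filter and decide nothing about NEFL. Per length, NEFL with sgWRN2 averaged 0.0493 FPKM in SW48 and 0.0958 FPKM in OVK18, against 8.63 and 9.26 FPKM for NEFM in the same groups.

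NEFH, the heavy subunit, had 1 read in all, in OVK18 sgWRN2 library A, and the other 11 libraries were at 0. A count of 0 allows up to 0.0932 CPM in SW48 sgWRN2, 0.0900 CPM in SW48 sgWRN3 and 0.0603 CPM in SW48 sgCh2-2, taking 3 reads over the pooled libraries of a group. A change of NEFH below these limits was not detectable at this depth.

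INA, which passed the filter, had overlapping groups in OVK18. It had 15 and 7 reads in OVK18 sgWRN2 libraries A and B, 11 and 13 with sgWRN3, and 14 and 8 with sgCh2-2. Its means there were 0.455 ± 0.101 CPM with sgWRN2, 0.492 ± 0.0178 CPM with sgWRN3 and 0.396 ± 0.209 CPM with sgCh2-2 (SD, n = 2 each). In SW48 INA had 7 and 1 reads with sgWRN2, 0 and 0 with sgWRN3, and 2 and 1 with sgCh2-2, and 7 of these 11 reads came from 1 library. INA passed the edgeR test in no contrast of guides within a line, with adjusted p = 0.310 for sgWRN2 minus sgWRN3 in SW48 and 0.983 in OVK18. INA passed the filter through its OVK18 libraries, since in SW48 only sgWRN2 library A exceeded 0.0641 CPM. A test of SW48 against OVK18 is therefore not independent of the filter. Between the control libraries INA was lower in SW48, at 0.0590 ± 0.00710 CPM, against 0.396 ± 0.209 CPM in OVK18 (log2 difference -2.56, SE 0.825, edgeR adjusted p = 0.0164), a contrast in which 68.6% of tested genes were called. Its adjusted p there was between 0.00919 and 0.0561 over the alternatives and missed the threshold only without SW48 sgCh2-2 library B.

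The share of neurofilament reads that came from NEFM was computed for each library. In SW48 its share was 97.8% and 99.1% with sgWRN2, 97.8% and 100% with sgWRN3, and 94.1% and 87.5% with sgCh2-2. In OVK18 it was 96.0% and 97.7% with sgWRN2, 75.0% and 82.7% with sgWRN3, and 54.8% and 64.5% with sgCh2-2, the rest being INA and NEFL but for the 1 NEFH read. For OVK18 sgCh2-2 library A, with 31 neurofilament reads, the exact binomial 95% interval ran from 36.0% to 72.7%, and for SW48 sgCh2-2 library B, with 16 reads, from 61.7% to 98.4%. These shares contain the NEFM values that chose the gene and are a description.

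The genes whose pattern was most like that of NEFM were taken by Pearson's r of log2 CPM over the 12 libraries after the mean of each line was subtracted. They were LAMC1 (r = 0.983), CCDC8 (0.977), AKAP13 (0.974), ZNF596 (0.965), AGO2 (0.963), CD55 (0.962), LONRF3 (0.961) and CCDC181 (0.961). The libraries share guides and line, and the genes were picked for their fit to NEFM, so these are descriptions without a test. Without subtracting the line means, CCDC8 and CCDC181 stayed among the 8 highest and the other 6 did not.

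The size of the pattern differed among them. CCDC8, a component of the 3M growth complex, averaged 1.14 ± 0.528, 0.180 ± 0.0834 and 0.0590 ± 0.00710 CPM in SW48 with sgWRN2, sgWRN3 and sgCh2-2, and 1.13 ± 0.131, 0.0630 ± 0.0342 and 0.0349 ± 0.00557 CPM in OVK18 in the same order. CCDC181, a coiled-coil protein, averaged 0.892 ± 0.450 and 0.0898 ± 0.0417 CPM in SW48 with sgWRN2 and sgWRN3 and had 0 reads with sgCh2-2. In OVK18 CCDC181 averaged 0.939 ± 0.0105, 0.0606 ± 0.0241 and 0.0853 ± 0.0108 CPM with sgWRN2, sgWRN3 and sgCh2-2. For both genes, each sgWRN2 library lay above every other library of its line.

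LAMC1, AGO2 and CD55 are given as further examples. LAMC1 averaged 517 ± 25.2, 312 ± 18.6 and 276 ± 21.3 CPM in SW48 with sgWRN2, sgWRN3 and sgCh2-2, and 843 ± 6.06, 480.5 ± 3.61 and 463 ± 2.16 CPM in OVK18. AGO2 averaged 91.4 ± 5.90, 56.0 ± 1.51 and 54.7 ± 0.231 CPM in SW48 and 110.5 ± 0.692, 65.4 ± 3.32 and 65.0 ± 0.838 CPM in OVK18, in the same order of guides. CD55, a cell-surface inhibitor of complement, averaged 1439 ± 109 CPM with sgWRN2 in SW48, against 734 ± 79.9 CPM with sgWRN3 and 626 ± 55.4 CPM with sgCh2-2, while in OVK18 no group mean of CD55 exceeded 0.260 CPM.

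**Figure D3:**
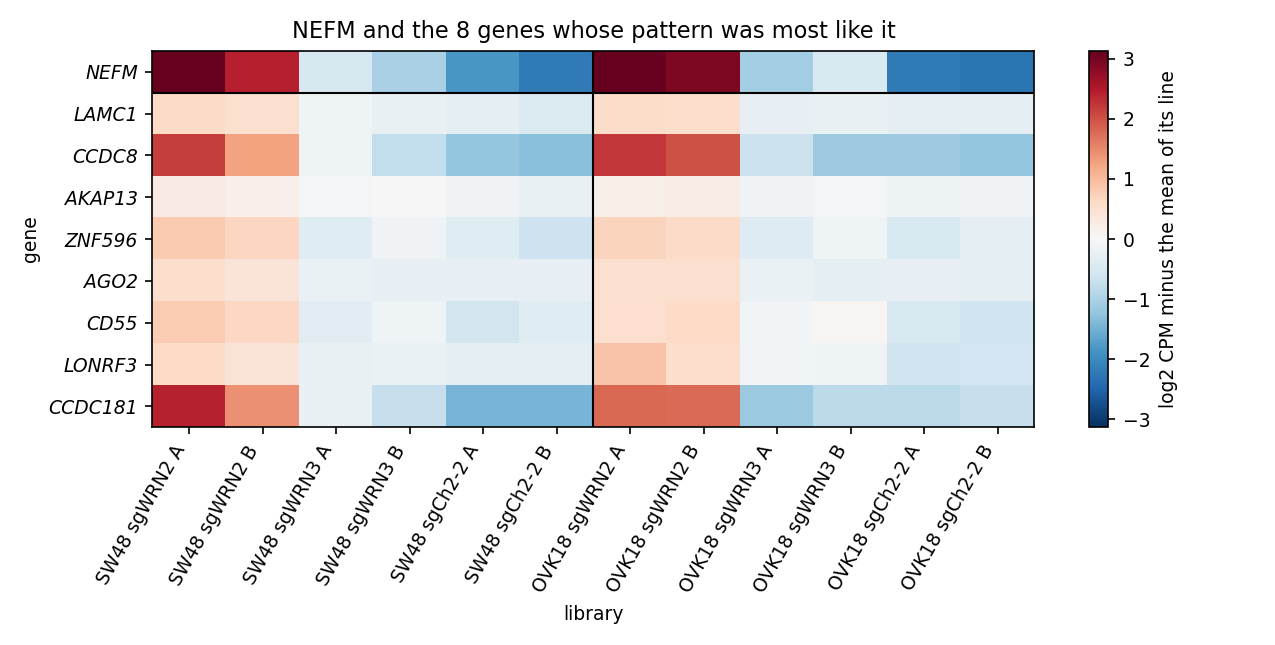
Log2 CPM minus the mean of the line (colour, red above and blue below 0) of NEFM and the 8 genes with the highest line-centred r, in the 12 libraries. NEFM, CCDC8 and CCDC181 show the deepest colour in the 4 sgWRN2 libraries, and LAMC1 and AKAP13 (r = 0.983 and 0.974) follow the same order at a smaller size.

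Across all genes, 9 were called higher with sgWRN2 than with sgWRN3 in both lines, which is 21.95% of the 41 in SW48 and 14.5% of the 62 in OVK18. Besides NEFM these were AGO2, CCDC181, CCDC8, COL4A2, LAMC1, LNPEP, TNFRSF10D and ZNF596. COL4A2 encodes a collagen IV chain of basement membrane, as LAMC1 encodes a laminin chain, and TNFRSF10D is a decoy receptor for TRAIL. In SW48, CCDC8 and CCDC181 were near the threshold (edgeR adjusted p = 0.0434 and 0.0479), and the counts of called genes changed without 1 library, as given above. Outside the sgWRN2 libraries, no library exceeded 0.239 CPM for CCDC8 or 0.119 CPM for CCDC181. Both genes thus passed the filter on low counts through the sgWRN2 libraries, and their calls are not independent of that filter. None of the other neuronal or filament genes listed below was among the 9. With 9 shared genes of 14199 tested, this absence says little about those lists. Listed genes that missed the filter could not be called. Of these, UCHL1 had 11, 1 and 3 reads in SW48 with sgWRN2, sgWRN3 and sgCh2-2. In OVK18 it had 20, 5 and 8 reads in the same order. UCHL1 was picked for these reads, and STMN2, GAP43 and DCX, also untested, had 0 reads in SW48.

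Of 22 other intermediate filament genes, 17 were tested. Between sgWRN2 and sgWRN3, 1 passed in SW48 (0.944% of all tested genes did) and 0 in OVK18 (0.747%). With the WRN guides together against sgCh2-2, 1 passed in SW48 (0.866%) and 0 in OVK18 (0.0282%), and with sgWRN2 alone against sgCh2-2, 2 passed in SW48 (3.08%, 437 of 14199) and 0 in OVK18 (0.796%, 113 of 14199). VIM, vimentin, the filament of mesenchymal cells, was higher with sgWRN2 than with sgWRN3 in SW48, at 1.85 ± 0.546 CPM, against 0.450 ± 0.0459 CPM (log2 difference 2.03, SE 0.395, edgeR adjusted p = 0.0325). In OVK18 VIM stood at 2.75 ± 0.371 CPM with sgWRN2 and 1.26 ± 0.303 CPM with sgWRN3 and did not pass (1.11, edgeR adjusted p = 0.111). The SW48 call of VIM was lost without any 1 of the 4 SW48 libraries compared or either OVK18 sgCh2-2 library, with adjusted p of at most 0.322. Against sgCh2-2, at 0.403 ± 0.117 CPM, VIM with sgWRN2 was also higher in SW48 (2.25, SE 0.377, 4.75-fold, edgeR adjusted p = 0.00584), a call lost without SW48 sgWRN2 A or sgCh2-2 A (adjusted p of at most 0.0914); in OVK18 this difference was 0.78 and did not pass (edgeR adjusted p = 0.237). LMNB1, lamin B1 of the nuclear lamina, was lower with the WRN guides together than with sgCh2-2 in SW48 (164 CPM, against 237 ± 18.1 CPM, log2 difference -0.56, edgeR adjusted p = 0.0282). That call passed in 13 of 21 alternatives. It was lost without 6 libraries: both SW48 sgCh2-2, SW48 sgWRN2 B, both SW48 sgWRN3 and OVK18 sgWRN3 B (adjusted p of at most 0.313). With sgWRN2 alone the LMNB1 difference from sgCh2-2 was -0.82 in SW48 (edgeR adjusted p = 0.00284), lost without SW48 sgWRN2 B (adjusted p = 0.0527). The median log2 difference of the 17 genes, sgWRN2 minus sgWRN3, was 0.16 in SW48 and 0.00 in OVK18, against 0.02 and -0.01 over all tested genes.

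Of 24 tested genes for the transport, cross-linking and turnover of neurofilaments, 0 passed between the guides, where 0.944% of all tested genes did in SW48 and 0.747% in OVK18. With sgWRN2 alone against sgCh2-2 those shares were 3.08% and 0.796%. The median log2 difference of the 24 genes, sgWRN2 minus sgWRN3, was 0.11 in SW48 and 0.01 in OVK18, against 0.02 and -0.01 over all tested genes. DYNC1H1, the dynein heavy chain that drives retrograde transport, had log2 differences of 0.22 in SW48 and 0.32 in OVK18 that did not pass (edgeR adjusted p = 0.477 and 0.120). Against sgCh2-2, DYNC1H1 with sgWRN2 was the 1 gene of the 24 that passed in OVK18, at 1740 ± 84.9 CPM, against 1220 ± 33.8 CPM (0.51, edgeR adjusted p = 0.0222), a call lost without OVK18 sgWRN2 B or either OVK18 sgCh2-2 library (adjusted p of at most 0.258); 0 passed in SW48. DCTN1, a subunit of the dynactin complex that works with dynein, had 0.25 and 0.36 (edgeR adjusted p = 0.728 and 0.253). TRIM2, a ubiquitin ligase for NEFL, had 0.10 in SW48 and -0.51 in OVK18, also without passing (edgeR adjusted p = 0.991 and 0.157).

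Of 28 cytoskeleton and axon genes, 17 were tested. Between the guides 0 passed in either line, where 0.944% of all tested genes did in SW48 and 0.747% in OVK18. Against sgCh2-2, 1 passed in SW48, where 0.866% of all did with both guides together and 3.08% with sgWRN2 alone. MAP1B, a microtubule-associated protein of growing axons, was higher in SW48 with the WRN guides together, at 11.3 CPM, than with sgCh2-2, at 6.44 ± 0.905 CPM (log2 difference 0.81, edgeR adjusted p = 0.0371). The MAP1B call passed in 7 of 21 alternatives and was lost without 9 of the 12 libraries, kept without SW48 sgWRN3 A, OVK18 sgWRN2 A or OVK18 sgWRN2 B (adjusted p of at most 0.319). With sgWRN2 alone the MAP1B difference was 1.04 (edgeR adjusted p = 0.00661), lost without SW48 sgWRN2 A, sgWRN2 B or sgCh2-2 A (adjusted p of at most 0.0810). Of 33 synapse and excitability genes, 21 were tested, and SYN1, synapsin 1 of synaptic vesicles, was higher in OVK18 with sgWRN2, at 3.59 ± 0.578 CPM, than with sgWRN3, at 0.969 ± 0.108 CPM (1.90, SE 0.280, edgeR adjusted p = 0.0100). SYN1 missed without OVK18 sgWRN2 A, sgWRN3 A or sgWRN3 B (adjusted p of at most 0.131). Against sgCh2-2, at 0.659 ± 0.163 CPM, it was higher with sgWRN2 by 2.43 in OVK18 (edgeR adjusted p = 0.00212), a call lost without OVK18 sgCh2-2 A (adjusted p = 0.0571). In SW48 SYN1 stood at 0.155 ± 0.0382 CPM with sgWRN2 and 0.180 ± 0.0834 CPM with sgWRN3. SCN2A, a voltage-gated sodium channel, was higher with sgWRN2 than with sgCh2-2 in SW48, at 10.7 ± 1.27 CPM, against 5.35 ± 0.684 CPM (0.99, SE 0.207, edgeR adjusted p = 0.0220), a call lost without any 1 of these 4 libraries (adjusted p of at most 0.211). No other gene of these lists passed in the 6 contrasts of guides within a line that were counted. TUBB3, the neuronal tubulin, stood at 42.6 ± 8.13 CPM with sgWRN2, 40.6 ± 7.61 CPM with sgWRN3 and 44.2 ± 5.56 CPM with sgCh2-2 in SW48. None of 9 tested neuronal transcription factors, of 22 listed, passed between the guides, or against sgCh2-2 with both guides together or sgWRN2 alone. The share of all tested genes called in these contrasts ran from 0.0282% to 3.08%, so few or 0 calls in a short list say little about the list.

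REST is the repressor that keeps many neuronal genes silent outside neurons. All 19 listed genes for REST and its partners were tested. REST transcript averaged 245 ± 27.5, 204 ± 28.0 and 222 ± 30.6 CPM in SW48 with sgWRN2, sgWRN3 and sgCh2-2, and 157 ± 42.7, 151 ± 19.8 and 153 ± 12.5 CPM in OVK18, and in neither line did it pass between the guides, or against sgCh2-2 with both guides together or sgWRN2 alone. CTDSPL, a small phosphatase that works with REST, was lower with sgWRN2 in both lines, at 216 ± 0.135 CPM with sgWRN2 and 287 ± 6.63 CPM with sgWRN3 in SW48 (log2 difference -0.41, SE 0.0866, edgeR adjusted p = 0.0489) and at 48.8 ± 3.28 and 72.6 ± 1.32 CPM in OVK18 (-0.57, SE 0.0889, edgeR adjusted p = 0.0120). The calls of CTDSPL passed in 11 and 16 of 21 alternatives. The SW48 call was lost without any 1 of the 4 SW48 libraries compared, either OVK18 sgCh2-2 library or OVK18 sgWRN3 B (adjusted p of at most 0.323), and the OVK18 call without OVK18 sgWRN2 B, sgWRN3 A or sgWRN3 B (at most 0.153). Against sgCh2-2, CTDSPL with sgWRN2 differed by -0.39 in SW48 (edgeR adjusted p = 0.0300) and by -0.52 in OVK18 (edgeR adjusted p = 0.0198). The first was lost without any 1 of the 4 SW48 libraries compared (at most 0.185), the second without SW48 sgWRN2 B, OVK18 sgWRN2 B, OVK18 sgWRN3 B or either OVK18 sgCh2-2 library (at most 0.244). The median log2 difference of the REST list, sgWRN2 minus sgWRN3, was -0.04 in SW48 and 0.00 in OVK18.

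The levels of defining neuronal markers were set beside those of NEFM. Over 13 neuronal markers the summed level in SW48 ran from 97.9 to 107 CPM with sgWRN2, from 92.7 to 96.3 CPM with sgWRN3 and from 92.2 to 96.5 CPM with sgCh2-2. In OVK18 it ran from 121 to 135 CPM, from 115 to 151 CPM and from 120 to 143 CPM with the same guides. The sgWRN2 libraries lay above the others in SW48 and within their range in OVK18, and the part of these markers in the NEFM result was not tested. TUBB3 and SYT1, a calcium sensor of synaptic vesicles, made up most of the SW48 sum, SYT1 standing at 58.8 ± 1.81 CPM with sgWRN2, 52.8 ± 4.70 CPM with sgWRN3 and 49.1 ± 2.16 CPM with sgCh2-2, and the one other marker above 1 CPM there was SYP, with sgWRN2 alone. In OVK18 the markers above 1 CPM were TUBB3, SNAP25, SYP and MAP2 with every guide and CHGA with sgWRN2 and sgCh2-2. STMN2, GAP43, SNAP25, ELAVL4 and DCX had 0 reads in all SW48 groups, and ELAVL4 had 0 reads in all OVK18 groups. Of 11 glial and Schwann cell markers, 4 were tested and 0 passed in the contrasts of guides counted for the lists above. The colorectal list (7 of 10 tested) and the Mullerian and ovarian list (6 of 9 tested) also had 0 calls in them. Those contrasts called between 0.0282% and 3.08% of all tested genes, so 0 calls in lists this short say little.

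**Figure D4:**
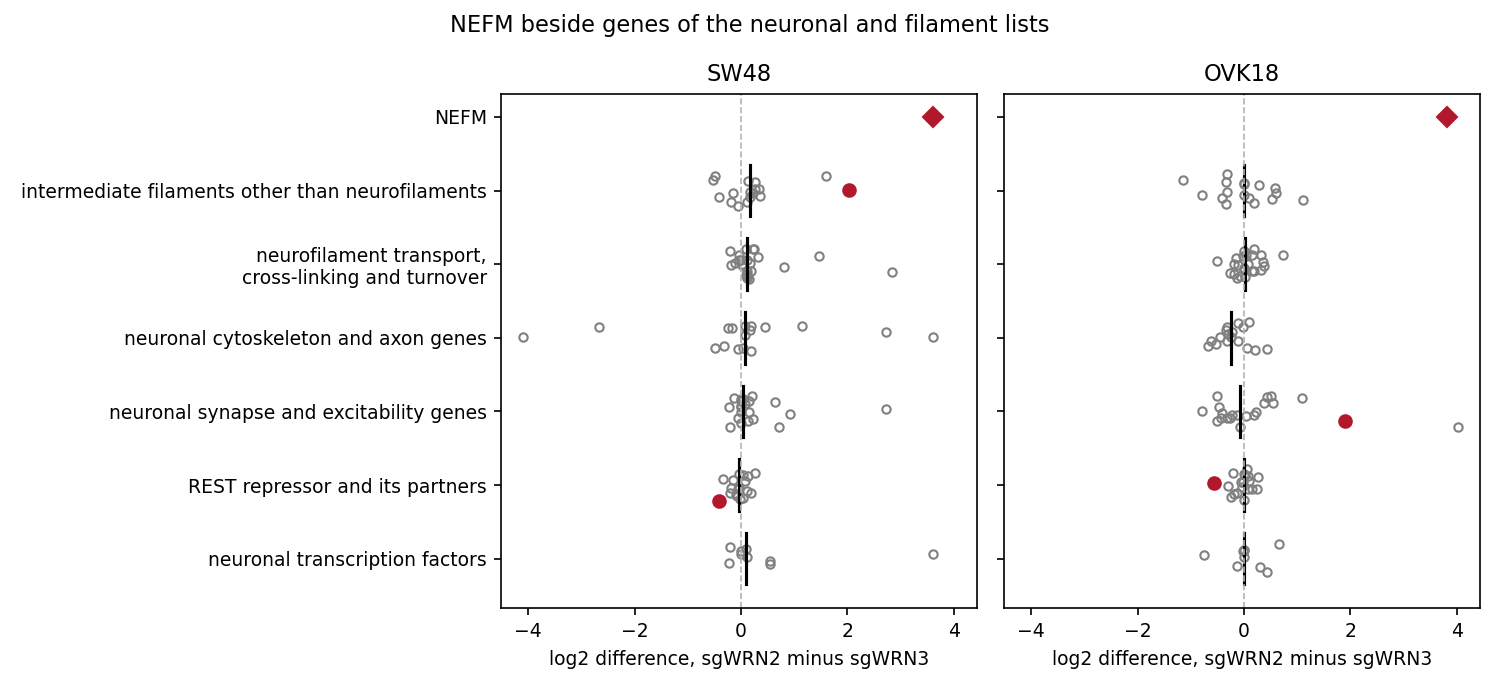
Log2 difference, sgWRN2 minus sgWRN3, of NEFM (diamond) and of the tested members of 6 gene lists (circles, filled red where the edgeR test passed, bars at list medians) in SW48 and OVK18. NEFM stands at 3.61 and 3.81, and the filled circles mark VIM and CTDSPL in SW48 and SYN1 and CTDSPL in OVK18. Open circles far from 0 include genes with 0 reads in a group, whose fitted differences depend on the prior count.

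NEFM and NEFL are adjacent on chromosome 8 in assembly GRCh38.p14, and WRN lies on the same chromosome. Of the tested protein-coding genes within 5 places of them, STC1, DOCK5, GNRH1, KCTD9 and CDCA2, none passed between the guides or with both guides together against sgCh2-2 in either line, and in those contrasts 0 of 21 tested neighbours passed over the 5 nearest genes on each side of all members. Those contrasts called between 0.0282% and 0.944% of all tested genes, so 0 calls among 21 neighbours, or among the 35 genes given below, say little. With sgWRN2 alone against sgCh2-2, 0 of 21 passed in OVK18 (0.796% of all tested genes did) and 1 in SW48 (3.08%). The 1 was CDCA2, a regulator of protein phosphatase in mitosis, which was lower (log2 difference -0.70, edgeR adjusted p = 0.0116). The stretch between NEFL and WRN, a set added after values had been seen, holds 45 protein-coding genes, of which 35 were tested and 0 passed between the guides or with both guides together against sgCh2-2. With sgWRN2 alone against sgCh2-2, 0 of the 35 passed in OVK18 and 4 were lower in SW48, where 3.08% of all tested genes passed: CDCA2, SCARA3 (-0.74, edgeR adjusted p = 0.0215), ESCO2, a cohesin acetyltransferase (-0.95, edgeR adjusted p = 0.0250), and PBK, a mitotic kinase (-0.89, edgeR adjusted p = 0.0145). Each of the 4 calls was lost without SW48 sgWRN2 A, sgWRN2 B or sgCh2-2 B, and that of SCARA3 also without SW48 sgCh2-2 A (adjusted p of at most 0.246). The median log2 difference of the 35 genes, sgWRN2 minus sgWRN3, was 0.04 in SW48 and -0.03 in OVK18, against 0.02 and -0.01 over all tested genes.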

How the data were processed

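The deposited table of whole-number counts per gene was used for all tests. Per the submitters' processing notes, the tools named were bcl2fastq 2.18, STAR 2.5 and Cufflinks 2.2.1, with genome build hg19; annotation and strand settings are not given in the sources used here. A second table deposited by the authors holds FPKM, a unit no header names and inferred from counts over values growing with transcript length. The 92 spike-in rows, all 0, were left out, and 28 symbols turned into dates are not named.

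edgeR 4.0.16 (R 4.3.3) was run with TMM scaling, filterByExpr over 6 groups (14199 genes), 1 coefficient per group over all 12 libraries, and a robust quasi-likelihood fit (6 residual degrees of freedom). P-values were adjusted over all tested genes by Benjamini-Hochberg, with a threshold of 0.05. Alternatives were RLE and library-size scaling, no filter, DESeq2 1.42.0, limma-voom (limma 3.58.1), limma on log2(FPKM + 1) and log2(FPKM + 0.1), the 6 libraries of 1 line, a replicate block, and leaving out each library. The filter was rerun in each fit without 1 library, where 1 group then held 1 library. It let in genes such as NEFL that missed the main fit. A call lost in such a fit need not rest on the library left out alone. The steps were tested on simulated counts. Replicate libraries differed beyond counting error (chi-square per gene 7.92 to 23.0).

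Members and lists were chosen with earlier results of these data known, and 1 listed gene is not reported here and was left out of the list counts, medians and plot. The text names the 4 members, the 8 genes most like NEFM, up to 4 genes per list by smallest p, and neighbours up to 5 on each side; REST, TUBB3, SYT1, SYP, the marker genes at 0 or above 1 CPM, the genes called with sgWRN2 alone against sgCh2-2 in the lists and between NEFL and WRN, the genes shared by the lines and those just outside the rule are named beyond that. UCHL1, which missed the filter, is also named, for its reads. Neighbour order is from GRCh38.p14, and no coordinates are given because the counts use another build.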

Additional observations from a re-analysis of the deposited data

How the results depend on the processing

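NEFM stayed higher with sgWRN2 than with sgWRN3 and past the threshold in all 21 alternatives in each line, at 2.44 to 3.90 in SW48 and 2.66 to 4.20 in OVK18 on the log2 scale (3.21 to 3.90 and 3.57 to 4.20 when 1 library was left out). These are refits of the libraries that also chose NEFM, so they are not independent of that choice. The guide difference compared between lines passed in none of 20 alternatives. The mean of both guides minus sgCh2-2 was 1.64 in SW48 and 1.77 in OVK18 on log2(FPKM + 1), and 3.13 in OVK18 on log2(FPKM + 0.1), where the pseudocount shrinks differences of low genes; without 1 library it was 2.92 to 3.37 and 3.37 to 3.69. INA between control libraries passed in 13 of 14 alternatives, at -2.73 with DESeq2, -0.12 on log2(FPKM + 1) and -0.77 on log2(FPKM + 0.1) (-2.58 to -2.50 without 1 library). With a replicate block per line, NEFM differed between the guides by 3.60 in SW48 (edgeR adjusted p = 0.00134) and 3.82 in OVK18 (edgeR adjusted p = 0.000478). No label says that the letters pair libraries, and correlations of A minus B deviations within a line ran from -0.226 to 0.413.

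Counts of called genes depended on the setting. For sgWRN2 minus sgWRN3 in SW48 (134), they were 298 with DESeq2, 334 with no filter, 226 and 219 on log2(FPKM + 1) and log2(FPKM + 0.1), 34 with the line alone, 43 with the block and 3 to 176 without 1 library. In OVK18 (106) they were 530, 518, 307, 198, 25 and 31 in the same settings, 161 with limma-voom, 151 with library size alone and 11 to 100 without 1 library. For both guides against sgCh2-2 in SW48 (123) they were 298, 292, 236, 191, 44 and 28, and 0 to 174 without 1 library. In OVK18 (4) they were 30 with DESeq2 and with no filter, 11 on log2(FPKM + 0.1), 1 with the line alone, 2 with the block and 0 to 4 without 1 library.

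Listed genes called, sgWRN2 minus sgWRN3, were 2 in SW48 (0 with the line alone and with the block, 0 to 3 without 1 library) and 2 in OVK18 (5 with DESeq2, no filter and log2(FPKM + 0.1), 6 on log2(FPKM + 1), 1 with the line alone and with the block, 0 to 2 without 1 library). Against sgCh2-2 they were 2 in SW48 (1 with limma-voom and on either FPKM scale, 0 with the line alone and with the block, 0 to 2 without 1 library) and 0 in OVK18 (1 with DESeq2, no filter and either FPKM scale, 0 without any 1 library). Depth limits NEFL, NEFH and INA, at 38, 1 and 79 reads in all.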
